A study of Mus musculus with 18 samples.

Results

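The Frizzled receptors are the 10 genes Fzd1 to Fzd10. They were taken by name from 49184 mouse genes with a listed transcript, by matching transcript identifiers without their version to gene symbols and summing the estimated counts of each gene, a rule that uses no measured value, although the family was taken up with earlier results of these data known. All 10 passed the filter on low counts. They comprise 16 listed transcripts, of which 5 belong to Fzd6 and are described apart.

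Cartilage caps of the femoral condyle were collected from 12-week-old male C57Bl/6J mice (C57bl6 in the labels) after a single load of 12 N had ruptured the anterior cruciate ligament (ACL) of the right knee. Total RNA without ribosomal RNA was sequenced in 18 libraries, namely 6 from naïve mice without rupture (labelled day_7_naive), 3 from injured right knees and 3 from contralateral left knees at day 1, and the same numbers at day 7. Every library was a pool of knees, and no source used here pairs an injured pool with the contralateral pool of its mice. The sources differ on the pools, since the series' design text gives medial cartilage caps and 4 mice for each sample, and the study's methods give the femoral condyle, with 2 mice in a day 1 pool and 4 in a day 7 pool. By their label the naïve knees belong to day 7, so that day 1 libraries differ from them in collection day as well as injury. By the study's methods the naïve mice numbered 6, with their left and right knees pooled apart, so that naïve libraries share mice. All tests treated the libraries as independent, and their p-values measure the spread between these pools. Naïve pools that share mice are not independent, so that p-values against naïve may be too small. Totals of estimated counts ranged from 16074762 to 41794005 per library, and a Frizzled gene held between 8 counts (Fzd10 in its lowest library) and 2022 counts (Fzd4 in its highest).

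Frizzled proteins are membrane receptors that bind Wnt ligands through a cysteine-rich domain outside the cell. With the co-receptors Lrp5 and Lrp6 they stabilise β-catenin, and with partners such as Ror2, Ryk and Ptk7 they feed branches that do not use β-catenin, including planar cell polarity. In cartilage, Wnt signals bear on chondrocyte differentiation and matrix turnover, and both too much and too little β-catenin is known to damage the joint.

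One library stood apart from its group. In the first day 7 contralateral library 42.5% of the counts fell on its 10 highest genes, against 18.4% and 22.5% in the other two of that group. Its summed level of 8 chondrocyte markers was 12279 CPM (counts scaled to the library size, TMM-normalised), against 3741 and 4318. Most of that sum was Col2a1 alone, at 10448 CPM against 2739 and 3128. Its erythroid markers summed to 64543 CPM, against 29229 and 31321. For the Frizzled genes, comparisons that use this group are given with and without it where the call changes.

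The libraries held the cartilage markers at a high level together with RNA of other tissues. Col2a1, the main collagen of cartilage, was the most abundant chondrocyte marker at 3240 ± 886 CPM in naïve libraries (SD, n = 6), and none of the 8 chondrocyte markers was at 0. The 7 erythroid markers summed to 34496 ± 3942 CPM, and the markers of skeletal muscle to 5632 ± 2233 CPM. The labels call the cells chondrocytes, and the blood and muscle markers were present beside them in every library. In bulk tissue of this kind, more cells of a type and more RNA per cell cannot be told apart.

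At day 7 after rupture the injured cartilage held more RNA of 6 of the 10 Frizzled genes than naïve cartilage, and less of none. Fzd2 rose most (5.51-fold), followed by Fzd6 (4.02-fold), Fzd1 (3.26-fold) and Fzd8 (2.93-fold), and Fzd3 and Fzd7 rose by 1.59-fold and 1.57-fold. Fzd4 and Fzd5, among the 3 most abundant Frizzled genes of naïve cartilage, gave 1.03-fold and 0.990-fold. Calls needed a change of 1.5-fold or more and an FDR no higher than 0.05 in edgeR's quasi-likelihood test, adjusted over 21129 genes. Of all genes tested in this comparison 10.4% were called higher and 6.11% lower. Over the 10 receptors the log2 fold changes had a median of 0.67, and over all genes a median of -0.04.

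**Figure D1:**
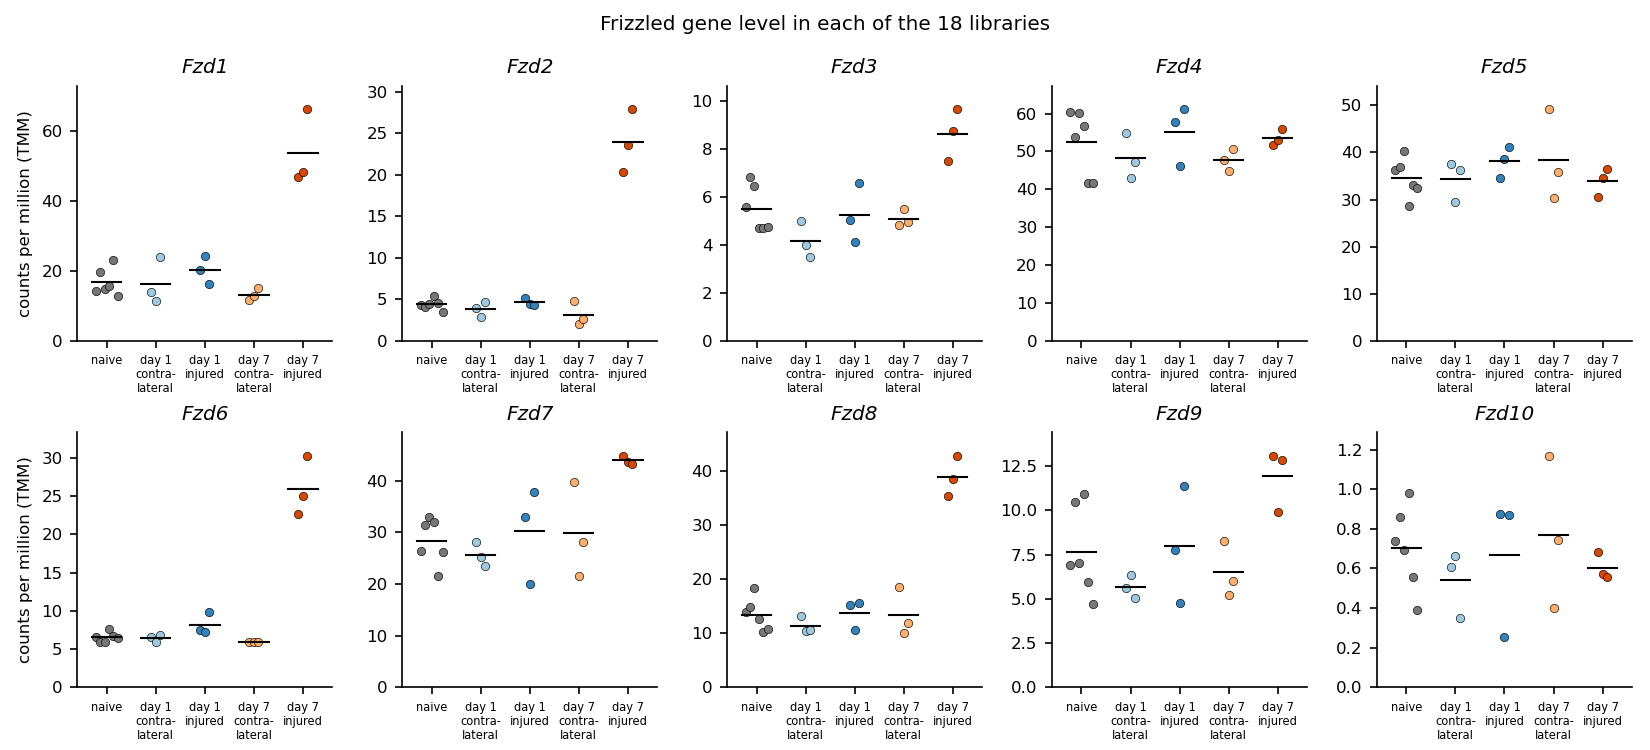
Level of each Frizzled gene in CPM (vertical axis, TMM-normalised, one linear scale per gene from 0) in the 18 libraries, by group; points are libraries and bars are group means. For Fzd1, Fzd2, Fzd3, Fzd6, Fzd7 and Fzd8 the 3 day 7 injured libraries lie above the other 15.

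For 6 genes, the same 6 that were called, the lowest day 7 injured library exceeded the highest naïve one, as it did for 17.3% of the 21262 genes measured over the 18 libraries. It also exceeded all 15 other libraries, as it did for 11.9% of genes. The injured libraries were above all day 7 contralateral libraries for 8 receptors (18.6% of genes), Fzd4 and Fzd9 being added, and above all day 1 injured libraries for 6 (22.7% of genes). Fzd5 and Fzd10 overlapped with every control group in the plot of CPM by library.

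The receptors are taken in turn by the relatedness of their coding sequences. Over the coding bases annotated by GENCODE, Fzd1 and Fzd2 shared 82.7% of aligned bases, Fzd1 and Fzd7 78.9%, and Fzd2 and Fzd7 78.6%. Fzd5 and Fzd8 shared 76.8% and Fzd9 and Fzd10 73.2%, whereas Fzd3 and Fzd6 were closest to each other among the pairs of Fzd3, at 66.7%. Reads from stretches that are identical in Fzd1 and Fzd2 were divided between them by estimation.

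Fzd1, Fzd2 and Fzd7 form the group most often tied to canonical Wnt signalling. Fzd1 in naïve libraries ranged from 12.8 CPM through a median of 15.3 CPM to 23.1 CPM. In day 7 injured libraries it measured 47.0, 48.3 and 66.4 CPM, and in day 7 contralateral libraries 11.7, 12.9 and 15.1 CPM. The lowest injured library was therefore above the highest of either control. The log2 fold change against naïve was 1.70 (SE 0.220, FDR 3.35e-05 by edgeR), and against contralateral 2.02 (SE 0.264, FDR 3.32e-05). Fzd1 spread the most of the strongly changed receptors among controls at day 1, where contralateral libraries ran from 11.4 to 23.9 CPM.

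Fzd2 had the steepest change of the family. Naïve libraries ran from 3.46 CPM through a median of 4.42 CPM to 5.39 CPM, and day 7 injured libraries gave 20.3, 23.6 and 27.9 CPM. Day 7 contralateral libraries gave 4.75, 2.10 and 2.67 CPM, the first of them being the library that stood apart. Every injured library was thus above every control, with log2 fold changes of 2.46 (SE 0.151, edgeR FDR 2.15e-08) against naïve and 2.96 (SE 0.254, edgeR FDR 4.62e-07) against contralateral. Without the first contralateral library the log2 fold change against the contralateral group was 3.34.

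Fzd7 changed much less than its relatives, although it is the more abundant gene in naïve cartilage. Its naïve libraries ranged from 21.6 CPM through 28.9 CPM to 32.9 CPM, and its day 7 injured libraries lay close together at 44.8, 43.6 and 43.3 CPM. The log2 fold change against naïve was 0.65 (SE 0.158, FDR 0.00638 by edgeR). Leaving out naïve replicate 5 brought the change to 0.57, under the fold limit. Against the contralateral libraries, at 39.8, 21.6 and 28.2 CPM, the change was 0.56 (SE 0.219) and was not called, with an FDR of 0.0859 by edgeR. Without the first contralateral library, the highest of the 3, it was 0.84 and was called (edgeR FDR 0.0122). Over all single libraries left out in turn, the change against contralateral ran from 0.36 to 0.84.

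Fzd8 and Fzd5 are a related pair, of which Fzd8 was called and Fzd5 was not. Fzd8 in naïve libraries ranged from 10.2 CPM through 13.2 CPM to 18.3 CPM, and in day 7 injured libraries it measured 35.3, 38.4 and 42.8 CPM. Its contralateral libraries at day 7 gave 18.5, 9.98 and 11.9 CPM. All injured libraries lay above all controls, with log2 fold changes of 1.55 (SE 0.161, edgeR FDR 3.92e-06) against naïve and 1.54 (SE 0.232, edgeR FDR 1.30e-04) against contralateral. Fzd5 ranged from 28.7 CPM through 34.7 CPM to 40.4 CPM in naïve libraries. Its day 7 injured libraries, at 30.5, 34.7 and 36.4 CPM, fell inside that range, and its log2 fold change was -0.01 (SE 0.108, FDR 0.930 by edgeR). The difference between the changes of Fzd8 and Fzd5 was not itself tested.

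Fzd3 and Fzd6 are the receptors best known for planar cell polarity, the alignment of cells within a sheet. Fzd6 had the narrowest control values of the strongly changed genes. Naïve libraries ran from 5.90 CPM through 6.52 CPM to 7.63 CPM, the day 7 contralateral libraries measured 6.001, 5.93 and 5.91 CPM, and the day 7 injured libraries measured 22.7, 25.0 and 30.3 CPM. The injured and control values did not approach one another. The log2 fold change was 2.01 (SE 0.120, edgeR FDR 1.69e-08) against naïve and 2.13 (SE 0.148, edgeR FDR 4.25e-08) against contralateral, the lowest FDR of the family in both comparisons. With the length offset the values were 1.63 and 2.27, and both were called.

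Fzd3 rose less and on fewer counts, between 62 and 209 per library. Its naïve libraries ranged from 4.69 CPM through 5.16 CPM to 6.83 CPM, and its day 7 injured libraries gave 7.49, 8.74 and 9.67 CPM, above all controls. The log2 fold change was 0.67 (SE 0.170, edgeR FDR 0.00786) against naïve and 0.76 (SE 0.200, edgeR FDR 0.0126) against contralateral. With the average transcript length per library as an offset it was 0.38 against naïve (edgeR FDR 0.501) and 0.96 against contralateral (edgeR FDR 0.163), and neither was called. Both calls were also lost without day 7 injured replicate 3, at 0.59 (edgeR FDR 0.0528) and 0.66 (edgeR FDR 0.0676).

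Fzd4, a receptor also used by the ligand norrin in blood vessels, Fzd9 and Fzd10 were not called. Fzd4 in naïve libraries ranged from 41.7 CPM through 55.2 CPM to 60.3 CPM, and day 7 injured libraries gave 51.6, 52.9 and 55.9 CPM, for a log2 fold change of 0.05 (SE 0.131, FDR 0.807 by edgeR). Fzd9 ranged from 4.70 CPM through 6.96 CPM to 10.9 CPM in naïve libraries against 13.1, 9.88 and 12.9 CPM in injured ones, so that the groups overlapped in a single injured library. Its log2 fold change was 0.67 (SE 0.261), as large as that of Fzd3, with an FDR of 0.0671 by edgeR, and it was called by limma-voom (0.75, adjusted p 0.0442) and by edgeR without naïve replicate 2 or naïve replicate 4 (FDR 0.0404 and 0.0307). Fzd10 was at the limit of the depth, with 8 to 28 counts per library and 0.392 to 0.980 CPM in naïve libraries. Its log2 fold change of -0.19 had an SE of 0.3896, and a change within that error was not detectable at this depth.

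**Figure D2:**
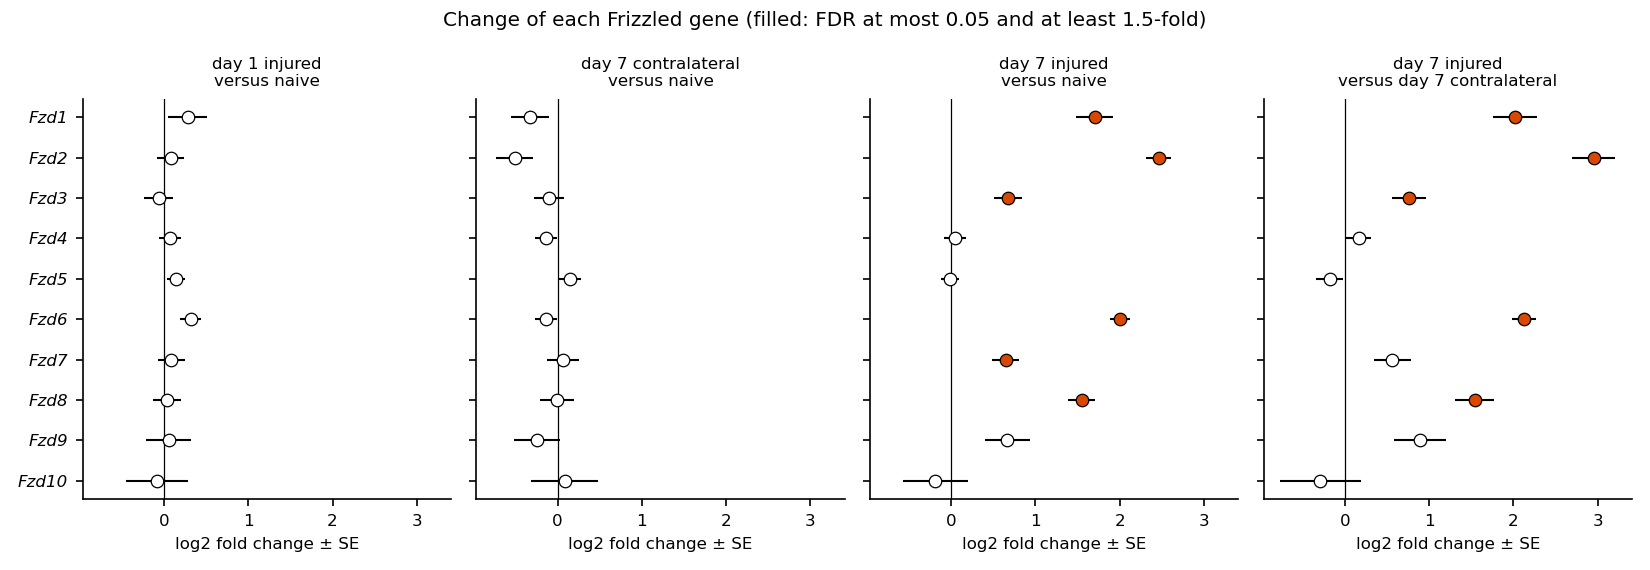
Log2 fold change of each Frizzled gene (horizontal axis, points with bars of 1 SE from edgeR's quasi-likelihood fit) in 4 comparisons; filled points passed an FDR of 0.05 and 1.5-fold. No gene is filled at day 1 or between the day 7 contralateral and naïve libraries, 6 are filled for day 7 injured against naïve and 5 against day 7 contralateral.

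Against the contralateral knees of day 7, 5 receptors were called higher (Fzd1, Fzd2, Fzd3, Fzd6 and Fzd8) and none lower, beside 9.33% and 3.23% of 21262 genes. Without the first contralateral library the count was 7, with Fzd7 and Fzd9 added, and 9.31% of genes were called higher. The count was 4, without Fzd3, at an FDR limit of 0.01, with the length offset or without day 7 injured replicate 3. Fzd9 was called in 3 other fits, namely limma-voom (0.95, adjusted p 0.0474), DESeq2 (0.88, adjusted p 0.0328) and edgeR on the compared groups alone (0.89, FDR 0.0394). The comparisons with naïve and with contralateral cartilage share the injured libraries and are not independent of each other.

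At day 1 no Frizzled gene was called against either control. No gene at all was called in these comparisons by edgeR (0.0% of 21129), although 959 genes against naïve and 1383 genes against contralateral had an unadjusted p under 0.05. For the comparison with naïve DESeq2 called 15 genes, all lower, and limma-voom none. Fzd6 was the only Frizzled gene with an unadjusted p under 0.05 against naïve in edgeR's test, at 7.46, 7.22 and 9.86 CPM in injured libraries and a log2 fold change of 0.32 (SE 0.125, FDR 0.987). That value rested on the treatment of length, at 0.072 with the length offset, and ran from 0.17 to 0.41 on leaving out single libraries. Against the contralateral knees of day 1, at 6.62, 5.96 and 6.85 CPM, it gave 0.33 (SE 0.145, FDR 0.755 by edgeR). In that comparison Fzd6 was also the single receptor whose injured libraries all lay above the contralateral ones, which 5.09% of genes did. All 10 receptors had a log2 fold change above 0 against the day 1 contralateral libraries, from 0.15 for Fzd5 to 0.48 for Fzd9, and none passed the adjustment. On leaving out single libraries all 10 stayed above 0, but their sizes moved. Fzd9 ran from 0.14 to 0.75, Fzd1 from 0.093 to 0.68, Fzd10 from 0.046 to 0.72 and Fzd5 from 0.050 to 0.22. Against naïve libraries 8 of the 10 were above 0, from -0.08 to 0.32, with a median of 0.08. Against the contralateral libraries the median was 0.29 where that of all genes was 0, and some marker lists were displaced as far in the same comparison. Their medians were 0.29 for chondrocytes, 0.32 for synovial fibroblasts, 0.47 for osteoblasts, 0.49 for osteoclasts, 0.46 for adipocytes and -0.37 for erythroid cells. Other lists were displaced less, namely skeletal muscle (0.28), proliferation (-0.25), marrow myeloid (-0.23), mural (0.20), endothelial (0.15) and macrophage markers (-0.087). No marker was called there, and their part in the Frizzled values was not tested.

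Between the injured knees of day 7 and of day 1, 5 receptors were called higher (Fzd1, Fzd2, Fzd3, Fzd6 and Fzd8) and none lower, beside 9.04% and 6.38% of genes. Fzd2 differed by 2.38 (SE 0.188, edgeR FDR 7.39e-07) and Fzd6 by 1.69 (SE 0.146, edgeR FDR 1.95e-06) on the log2 scale. Fzd7 had an FDR of 0.0405 by edgeR at 0.56 (SE 0.186), just under the fold limit, and was called by limma-voom (0.62, adjusted p 0.0287) and without day 1 injured replicate 3 (0.74, edgeR FDR 0.0166). On leaving out single libraries the value of Fzd7 ran from 0.32 to 0.74. Fzd3, at 0.74 (SE 0.200, edgeR FDR 0.0151), lost its call at an FDR limit of 0.01 and with the length offset (0.96, edgeR FDR 0.150). Its call was also lost without day 1 injured replicate 1, day 1 injured replicate 2 or day 7 injured replicate 3 (0.58 to 0.70, edgeR FDR 0.0529 to 0.0697). The count ran from 4 to 6 over these settings.

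The difference between the injury effects was tested directly, as injured minus contralateral at day 7 less the same at day 1. It was called for 4 receptors, namely Fzd2 at 2.69 (SE 0.344, edgeR FDR 1.77e-04), Fzd6 at 1.79 (SE 0.204, edgeR FDR 5.97e-05), Fzd1 at 1.72 (SE 0.362, edgeR FDR 0.0106) and Fzd8 at 1.26 (SE 0.323, edgeR FDR 0.0348). Of all genes 3.53% were called higher in this test and 0.245% lower. The call of Fzd8 was lost on leaving out any of 9 of the 12 libraries in turn, with an FDR of up to 0.110 by edgeR, and in a fit of the compared groups alone (FDR 0.0544).

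Between the contralateral knees of day 7 and naïve knees edgeR called no Frizzled gene and no other gene (0.0% of 21262, with 3220 genes at an unadjusted p under 0.05). DESeq2 called 8 genes there, all higher, and limma-voom none. Fzd2 had the largest difference of the family, at -0.51 (SE 0.222, FDR 0.299 by edgeR), and it came to -0.88 without the first contralateral library. Fzd6 differed by -0.14 (SE 0.128, FDR 0.615 by edgeR), and by -0.66 with the length offset (edgeR FDR 0.221), again not called.

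The order of the receptors within a group was read from TPM, which scale each transcript by its length and the library by its total. In naïve cartilage Fzd4 led at 4.05 ± 0.817 TPM (SD, n = 6), followed by Fzd7 at 3.29 ± 0.537 TPM, Fzd5 at 2.71 ± 0.469 TPM and Fzd1 at 2.10 ± 0.514 TPM. Fzd9, Fzd6 and Fzd8 came next, between 1.80 and 1.17 TPM, then Fzd2 at 0.639 ± 0.119 TPM, Fzd3 at 0.348 ± 0.169 TPM and Fzd10 at 0.115 ± 0.0312 TPM. Neighbours in this order overlapped in their ranges over naïve libraries and do not differ beyond their spread, except Fzd8 and Fzd2 and, at the bottom, Fzd3 and Fzd10.

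In day 7 injured cartilage the order began with Fzd1 at 5.58 ± 1.76 TPM (SD, n = 3), Fzd7 at 4.13 ± 0.446 TPM and Fzd4 at 3.37 ± 0.548 TPM. Fzd6, at 3.16 ± 0.754 TPM, and Fzd2, at 2.86 ± 0.794 TPM, took places 4 and 5, and Fzd5 had moved from place 3 to place 8 at 2.13 ± 0.459 TPM. Ranges of neighbours again overlapped down to Fzd5, so that the first 8 places are not set apart step by step. The summed level of the 10 receptors was 17.5 ± 2.30 TPM in naïve and 26.8 ± 5.69 TPM in injured libraries, with ranges of 14.4 to 21.1 TPM and 21.5 to 32.8 TPM. Day 1 injured libraries were as high, at 27.9 ± 8.02 TPM with a range of 22.4 to 37.1 TPM, although no receptor was called there. The contralateral sums were 19.7 ± 4.28 TPM at day 1 and 13.8 ± 5.52 TPM at day 7. TPM carry no TMM scaling. As a share of that sum, Fzd2 went from 3.64% ± 0.439 to 10.6% ± 0.815, Fzd1 from 12.1% ± 2.99 to 20.6% ± 2.11, and Fzd4 from 23.0% ± 2.40 to 12.7% ± 0.672, each pair with separate ranges. Shares of a fixed sum depend on each other, and TPM of Fzd3 also carries a short transcript without a coding sequence, of 426 bases, beside the coding one of 12734 bases. TPM of Fzd6 likewise carries short transcripts, which weigh on its place in the order. In naïve libraries Fzd6-203, Fzd6-204 and Fzd6-205 held means of 14.9%, 18.1% and 5.91% of Fzd6 TPM, on mean counts of 3.58, 6.95 and 1.21. In day 7 injured libraries these shares were 15.6%, 1.73% and 0.0%. The coding Fzd6-201 and Fzd6-202 had means of 0.594 and 0.182 TPM in naïve and 1.48 and 1.14 TPM in injured libraries.

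**Figure D3:**
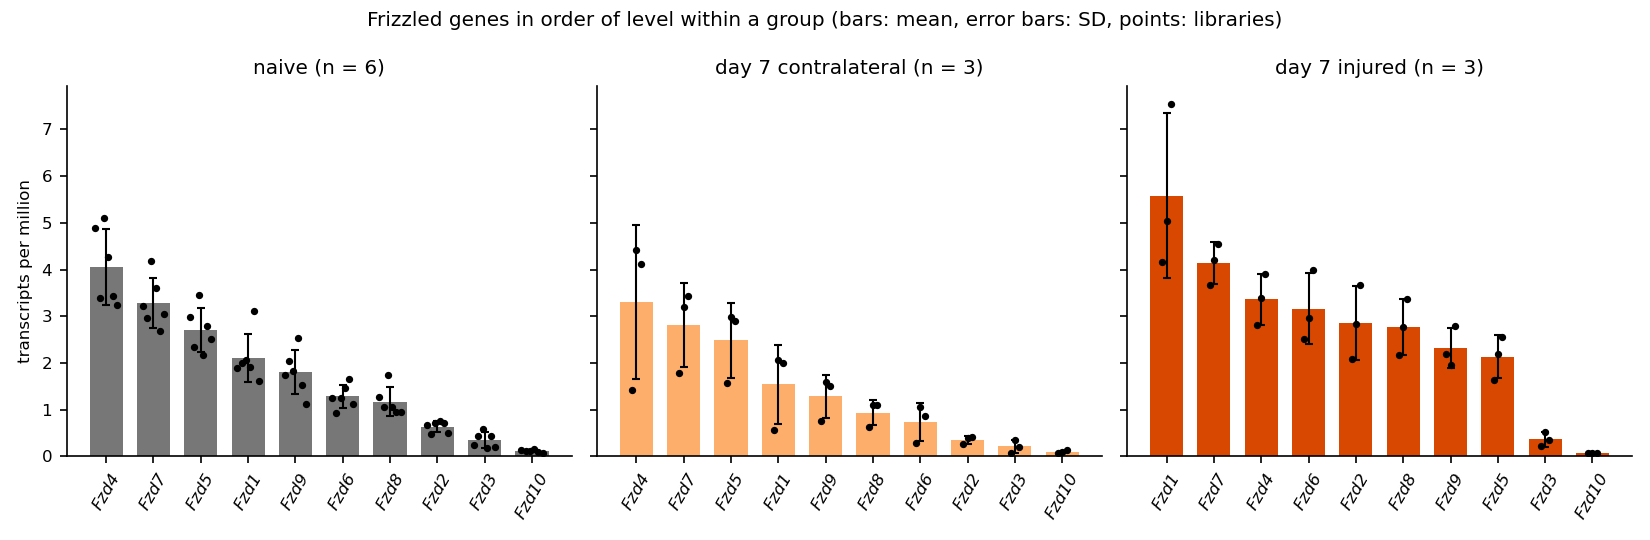
Frizzled genes in order of level within naïve, day 7 contralateral and day 7 injured libraries (vertical axis, TPM from 0; bars are means, error bars SD, points libraries). Fzd4 leads in naïve libraries at a mean of 4.05 and Fzd1 leads in day 7 injured libraries at a mean of 5.58.

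Fzd6 has 5 listed transcripts on chromosome 15 of GRCm38, on the plus strand, in the gene at chr15:39006034-39038188. Fzd6-201 (4081 bases, 7 exons) and Fzd6-202 (4325 bases, 7 exons) code for the same protein, since their coding sequence of 2130 bases is identical. They share 4024 bases, and 57 bases of Fzd6-201 and 301 bases of Fzd6-202 are their own. The 3 others, a retained intron (Fzd6-203) and 2 transcripts annotated for nonsense-mediated decay (Fzd6-204 and Fzd6-205), are 458 to 750 bases long.

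Both coding transcripts were called higher in day 7 injured than in naïve libraries, beside 4.55% of the 63852 transcripts tested. Fzd6-201 ranged from 2.87 to 6.38 CPM in naïve libraries and measured 10.4, 17.2 and 14.1 CPM in injured ones, with a log2 fold change of 1.67 (SE 0.230, edgeR FDR 4.35e-04). Fzd6-202 ranged from 0.0 to 3.22 CPM in naïve libraries and measured 11.5, 7.30 and 15.5 CPM in injured ones, with a log2 fold change of 2.99 (SE 0.748, edgeR FDR 0.0241). For both, no naïve library reached an injured one. The call of Fzd6-202 was lost without naïve replicate 1, day 7 injured replicate 1 or day 7 injured replicate 3, with FDRs from 0.0515 to 0.0877 by edgeR. Its size also moved with the tool, to 4.20 by limma-voom (adjusted p 0.0119). Fzd6-203 gave 1.74 (SE 1.13, FDR 0.385 by edgeR), and Fzd6-204 and Fzd6-205 did not pass the filter.

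The division of Fzd6 counts between the transcripts varied widely among replicates. Fzd6-202 held 0.0% to 47.8% of Fzd6 counts in naïve libraries, and 50.6%, 29.3% and 51.2% in day 7 injured libraries. The means were 23.4% ± 18.4 (SD, n = 6) and 43.7% ± 12.5 (SD, n = 3), and the difference of 20.3 percentage points did not pass a 2-sided exact permutation test (p = 0.131, adjusted 0.327 over the 5 transcripts, with 0.0119 as the smallest p that 6 against 3 libraries allow). Measured as a share of TPM the difference gave an exact p of 0.0357, which is not adjusted over the transcripts. Shares of TPM give the short transcripts much weight at few counts. In naïve replicate 2, 6.50 counts of Fzd6-203 made 40.5% of Fzd6 TPM. In day 7 contralateral libraries the share of Fzd6 counts held by Fzd6-202 was 66.4%, 25.7% and 52.2%, overlapping the injured ones. The highest of these is the library that stood apart, and the injured mean less the contralateral mean was -4.43 points with that library (exact p = 0.8) and 4.71 points without it (exact p = 0.7), the second being an alternative chosen after seeing the data. The files give no error for this division, which rests on the few bases that the transcripts do not share.

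**Figure D4:**
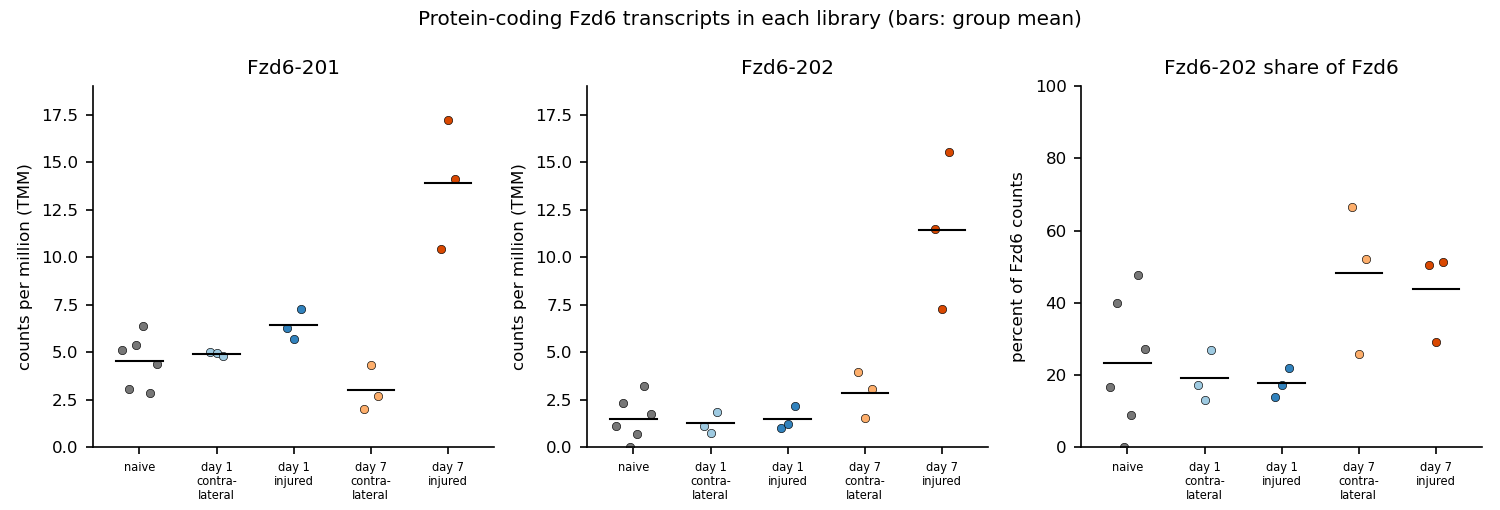
Level of Fzd6-201 and Fzd6-202 in CPM and the share of Fzd6 counts held by Fzd6-202 in percent (vertical axes, from 0) in each library, by group; bars are group means. Both transcripts are highest in the 3 day 7 injured libraries, while the share of Fzd6-202 overlaps between naïve, day 7 contralateral and day 7 injured libraries, with a range of 0.0% to 47.8% in naïve libraries alone. The share is at most 27.1% in the day 1 libraries and at least 29.3% in the day 7 injured ones.

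The series names miR-199a-5p, a miRNA of connective tissue, in its title, and the Fzd6 3′ untranslated region holds 2 matches to its seed (bases 2 to 8, in capitals in the miRNA sequence from RefSeq). The sites, in capitals with the 10 bases on each side, lie at chr15:39036583-39036609 and chr15:39037344-39037370 on the plus strand of GRCm38, and the matches begin at bases 39 and 800 of the 3′ untranslated region of both coding transcripts.
mmu-miR-199a-5p: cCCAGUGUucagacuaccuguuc
Fzd6 first site: catgtatgttACACTGGagatgaccaa
Fzd6 second site: gatagctgttACACTGGatttttaaaa
The letters ACACTGG were found by an exact search of the longest annotated 3′ untranslated region of each gene on the sense strand. They occurred 2 times in Fzd10 as well, singly in Fzd3, Fzd4 and Fzd5, and were absent from the searched regions of Fzd1, Fzd2, Fzd7, Fzd8 and Fzd9. Among 2876 3′ untranslated regions within 20% of the length of that of Fzd6, 16.9% held at least 1 match. For regions within 20% of the length of the others the share was 51.3% for Fzd3, 36.4% for Fzd4, 33.2% for Fzd5 and 10.8% for Fzd10, so that a single match was common at the lengths of the first 3. The genes with a match thus included Fzd6 and Fzd3, which rose, and Fzd4, Fzd5 and Fzd10, which were not called. A match of letters is a description of the sequence, and levels of the miRNA were not analysed here.

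The RefSeq table of promoters (GRCm38.p6, 250 bases before to 50 after the annotated start) held 6 of the 10 receptors, namely Fzd1 and Fzd7 of those called and Fzd4, Fzd5, Fzd9 and Fzd10. Those of Fzd1, which led in injured cartilage, and Fzd4, which led in naïve cartilage, are shown because the data separate the 2 genes, at chr5:4758167-4758466 on the minus strand and chr7:89404116-89404415 on the plus strand. The starts are those of RefSeq. The windows of Fzd1, Fzd7 and Fzd10 do not hold the GENCODE start of the transcript counted here (chr5:4758035, chr1:59482424 and chr5:128600844), whereas those of Fzd4, Fzd5 and Fzd9 do. Capitals mark, on either strand, the letters TATAAA (as in a TATA box), CCAAT (as in the box of that name), GGGCGG (as in a GC box) and CTTTGA (the core letters read by TCF/LEF factors), and overlapping matches run together.
Fzd1: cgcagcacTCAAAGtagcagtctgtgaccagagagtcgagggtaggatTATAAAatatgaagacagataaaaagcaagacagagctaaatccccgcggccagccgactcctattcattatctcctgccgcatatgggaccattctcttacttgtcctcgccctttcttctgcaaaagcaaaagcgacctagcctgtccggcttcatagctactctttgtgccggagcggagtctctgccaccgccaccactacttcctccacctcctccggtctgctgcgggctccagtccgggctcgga
Fzd4: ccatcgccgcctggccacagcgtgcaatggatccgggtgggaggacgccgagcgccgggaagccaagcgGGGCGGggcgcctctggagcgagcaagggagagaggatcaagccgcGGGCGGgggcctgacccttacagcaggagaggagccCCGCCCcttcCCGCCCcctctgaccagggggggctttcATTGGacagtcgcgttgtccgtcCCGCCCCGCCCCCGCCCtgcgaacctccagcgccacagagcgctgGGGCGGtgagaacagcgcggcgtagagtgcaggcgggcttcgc
The Fzd1 window held 1 TATAAA and 1 CTTTGA and no GGGCGG, with 16 CG dinucleotides, whereas the Fzd4 window held 8 GGGCGG and 1 CCAAT with 32 CG dinucleotides. The TATAAA of Fzd1 lies toward the upstream end of its window, well before the RefSeq start. Whether any of these letters acts in a promoter was not tested. TATAAA was found in 13.6% of 32851 promoters, CTTTGA in 16.003%, CCAAT in 37.4% and GGGCGG in 35.7%. Among the 6 receptors, TATAAA and CTTTGA were found only in Fzd1. Promoters of the other called receptors, Fzd2, Fzd3, Fzd6 and Fzd8, were not analysed here.

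The other genes of the pathway were taken from lists of 88 genes by role, and their counts are to be read beside the 10.4% of all genes called higher and 6.11% called lower in day 7 injured against naïve cartilage. Among ligands, 12 of 19 Wnt genes were measured well enough to be tested and 4 were higher in day 7 injured than in naïve cartilage, with a list median of 0.45 beside -0.04 over all genes. Wnt16 rose from 1.34 ± 0.501 CPM (SD, n = 6) to 7.91 ± 0.868 CPM (SD, n = 3), with a log2 fold change of 2.55 (SE 0.245, edgeR FDR 1.80e-06). Wnt9a rose by 2.22 (SE 0.276, edgeR FDR 2.26e-05) from 2.97 ± 0.927 CPM. Wnt5a, the best known ligand of the branches without β-catenin, rose by 1.04 (SE 0.147, edgeR FDR 7.93e-05), and Wnt5b by 0.77 (SE 0.139, edgeR FDR 6.84e-04). Wnt5b was not called against contralateral cartilage (0.11, SE 0.238, FDR 0.813 by edgeR), whereas the other 3 were. Without the contralateral library that stood apart, an alternative chosen after seeing the data, Wnt5b was at 0.54 (edgeR FDR 0.0501), again not called, and the other 3 were called.

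Of 10 co-receptors and partners, 7 rose and none fell, with a median of 1.06. Ror2, a receptor tyrosine kinase that binds Wnt5a, rose from 2.496 ± 0.840 CPM in naïve to 13.7 ± 3.42 CPM in injured libraries, and its log2 fold change was 2.46 (SE 0.243, edgeR FDR 2.42e-06). Ptk7 rose by 1.61 (SE 0.153), Adgra2 by 1.60 (SE 0.260) and Ror1 by 1.33 (SE 0.176), each with an edgeR FDR of at most 2.83e-04. The remaining 3, Ryk, Smo and Lrp6, rose by 1.13, 0.99 and 0.92. Of these, Smo is a relative of the Frizzled receptors that transduces Hedgehog signals and is not a Wnt co-receptor. Lrp5, the other co-receptor of the β-catenin branch, was at 0.30 and below the fold limit. All 7 were called against contralateral cartilage too, with and without the library that stood apart.

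Of 9 genes that set how long Frizzled receptors stay at the surface, 2 rose and 1 fell in day 7 injured against naïve cartilage, with a median of 0.30. With so few genes these counts are no result about the list, and the genes are given by their values alone. Rspo2, a secreted R-spondin that protects Frizzled from removal, rose by 1.68 (SE 0.292, edgeR FDR 4.92e-04), and Lgr5, a receptor of R-spondins, by 0.98 (SE 0.231, edgeR FDR 0.00525). Rnf43, a ubiquitin ligase that removes Frizzled, fell by 0.63 on the log2 scale (SE 0.180, edgeR FDR 0.0162), from 3.02 ± 0.456 to 1.91 ± 0.293 CPM. With the average transcript length as an offset its value was 0.38, so that its direction depended on the treatment of length. Its call was also lost without naïve replicate 2, day 7 injured replicate 2 or day 7 injured replicate 3 (-0.60 to -0.54).

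Wnt antagonists, a list of secreted proteins and the 2 membrane receptors Kremen1 and Kremen2, held the largest changes of all 7 lists. Of 12 tested, 7 rose and 1 fell, with a median of 0.86. Dkk3 went from 17.6 ± 3.58 CPM in naïve to 266 ± 58.0 CPM in injured libraries, and its log2 fold change was 3.94 (SE 0.214, edgeR FDR 6.11e-09). Sfrp2 rose by 3.14 (SE 0.270, edgeR FDR 6.39e-07) and Sfrp1 by 2.77 (SE 0.296, edgeR FDR 5.07e-06). These secreted Frizzled-related proteins carry the same cysteine-rich domain as the receptors and bind Wnt ligands. Kremen1, a membrane receptor for Dkk proteins and not itself secreted, rose by 1.59 (SE 0.113, edgeR FDR 9.83e-08). The gene that fell was Sost, the osteocyte antagonist sclerostin, at -0.95 (edgeR FDR 0.00488), named after its value was seen.

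Of 16 genes of the intracellular core, only Tcf7l1, a transcription factor that acts mostly as a repressor, was called against naïve cartilage, at 0.60 (SE 0.117, edgeR FDR 0.00120), and the median was 0.25, a share of calls no higher than over all genes. Tcf7l1 fell under the fold limit with the length offset (0.56) and without day 7 injured replicate 3 (0.45). Ctnnb1, which encodes β-catenin, was at 0.50 (FDR 1.21e-04 by edgeR), under the fold limit. Of 5 feedback targets tested, Nkd2 rose by 1.18 (SE 0.171, edgeR FDR 9.86e-05) and Nkd1 by 0.90 (SE 0.237, edgeR FDR 0.00979). Without day 7 injured replicate 3 Nkd1 was at 0.65 and not called (edgeR FDR 0.0975). Axin2, the most used readout of β-catenin signalling, was not called, at 0.43 with an FDR of 0.0709 by edgeR. Of 14 genes of planar cell polarity, 4 rose and 1 fell with a median of 0.05, namely Dact1 at 1.70 (SE 0.147, edgeR FDR 6.47e-07), Prickle2 at 1.06 (SE 0.142), Prickle1 at 1.05 (SE 0.136) and Daam2 at 0.60, with Celsr2 lower at -1.04 (SE 0.229, edgeR FDR 0.00306). The core genes Vangl1 and Vangl2 were at 0.55, past the FDR but under 1.5-fold, and 0.34, not past it. Against contralateral cartilage 3 more genes of these lists were called, named after their values were seen, with Dvl3, which relays the signal of Frizzled receptors, at 0.72 (edgeR FDR 0.00270), Vangl1 at 0.88 (edgeR FDR 0.00267) and Celsr3 at -0.83 (edgeR FDR 0.00180).

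**Figure D5:**
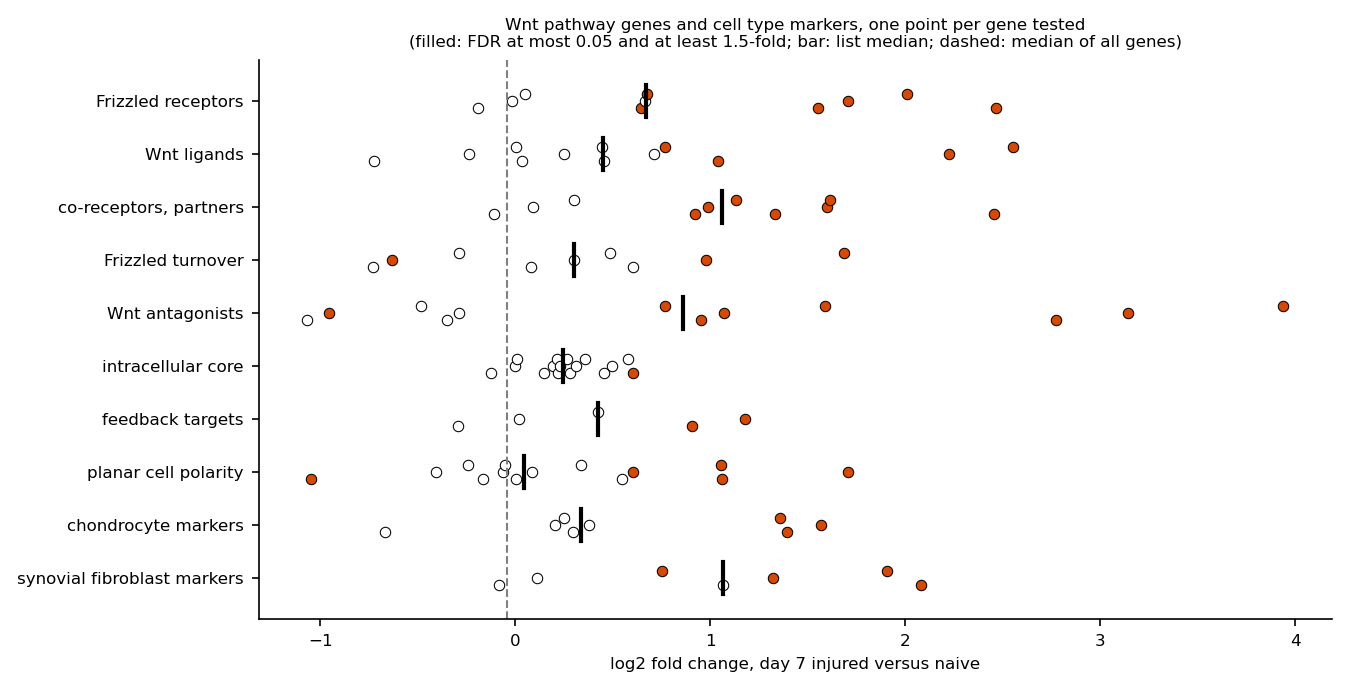
Log2 fold change of day 7 injured against naïve cartilage (horizontal axis) for the Frizzled receptors, 7 lists of Wnt pathway genes and markers of chondrocytes and synovial fibroblasts; each point is a gene tested, filled where the FDR was at most 0.05 and the change at least 1.5-fold, with a bar at the list median and a dashed line at the median of all genes (-0.04). Filled points to the right are frequent among co-receptors and Wnt antagonists, and 1 of 16 core genes is filled.

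Markers of other cells moved with the receptors. Their counts are to be read beside the 10.4% of all genes called higher and 6.11% called lower in day 7 injured against naïve cartilage. With so few genes in each list, the counts are no result about the lists. The 7 synovial fibroblast markers summed to 333 ± 44.8 CPM in naïve libraries (SD, n = 6) and to 804 ± 77.5 CPM in day 7 injured libraries (SD, n = 3), with separate ranges of 296 to 412 CPM and 727 to 882 CPM. Of these 7, 4 rose (Thy1, Pdgfra, Cd34 and Col15a1), none fell and none was at 0, with Pdgfra the most abundant in naïve libraries at 100.8 CPM. At day 7 their contralateral sum was 343 ± 31.9 CPM. Of 8 chondrocyte markers, 3 rose as well (Acan, Comp and Sox9). The 8 summed to 4481 ± 1166 CPM in naïve and 6565 ± 421 CPM in day 7 injured libraries, with Col2a1 the most abundant in both. These sums overlapped, with ranges of 3483 to 6721 CPM and 6089 to 6889 CPM. At day 7 the contralateral sum was 6779 ± 4771 CPM, with the library that stood apart included. Endothelial markers rose in 4 of 8 genes (Pecam1, Cdh5, Emcn and Esam), with a sum of 541 ± 36.0 CPM in naïve and 637 ± 36.4 CPM in injured libraries. Vwf, the most abundant of the 8 in naïve libraries, went the other way, from 255 CPM (range 218 to 292 CPM) to 195 CPM (range 188 to 208 CPM), at -0.37 with an FDR of 0.0271 by edgeR and under the fold limit. Mural markers rose in 1 of 5 (Rgs5), with a sum of 358 ± 58.9 and 551 ± 63.4 CPM. Of 6 osteoblast markers Ibsp rose and Mepe fell, and of 5 osteoclast markers Ctsk rose. Erythroid markers fell in 4 of 7 genes (among them Alas2, Hba-a1 and Slc4a1), marrow myeloid markers in 2 of 7 (S100a8 and S100a9) and adipocyte markers in 2 of 4 (Cfd and Lep), and no marker of macrophages, skeletal muscle or proliferation was called. Some sums were still separate between naïve and injured libraries. Macrophage markers summed to 464 to 637 and 708 to 793 CPM, osteoclast markers to 1034 to 1643 and 1729 to 1860 CPM, and proliferation markers to 2113 to 2507 and 1608 to 1976 CPM. Within the osteoclast sum Ctsk went from a mean of 250 to 586 CPM and Acp5 from 329 to 460 CPM. Mmp9, the most abundant osteoclast marker, was at 763 CPM in both groups. At day 7 the contralateral sums were 698 ± 56.4 CPM for macrophage, 1979 ± 338 CPM for osteoclast and 2164 ± 424 CPM for proliferation markers. The part of these cells in the Frizzled changes was not tested.

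The genes whose pattern was most like each called receptor were found by Pearson's r of log2 CPM over the 18 libraries among 21262 genes. For Fzd6 they were Pkd2 (r = 0.98), Twsg1 (r = 0.98) and Matn2 (r = 0.98), and for Fzd2 they were Aebp1 (r = 0.98), Ltbp1 (r = 0.98) and Nfatc4 (r = 0.97). For Fzd1 they included Tram2 and Emp1, each at r = 0.98. The points share their libraries and depth, and the 3 day 7 injured libraries stand apart in all of these genes. Over the other 15 libraries alone r was 0.69 for Pkd2, 0.68 for Twsg1 and 0.59 for Matn2 with Fzd6. For Fzd8 the closest genes were Nynrin, Clstn1 and Matn4 (r = 0.98, 0.98 and 0.97), for Fzd3 they included Jcad and Ano1 (r = 0.94 and 0.92), and for Fzd7 Ltbp4, Mfge8 and Frzb (r = 0.95, 0.94 and 0.94). Frzb encodes another secreted Frizzled-related protein. Over the 15 libraries r with Fzd7 was 0.93 for Ltbp4, 0.91 for Mfge8 and 0.91 for Frzb. With Fzd2 it was 0.78 for Aebp1, 0.76 for Ltbp1 and 0.73 for Nfatc4, and with Fzd1 0.90 for Tram2 and 0.92 for Emp1. For Nynrin, Clstn1 and Matn4 with Fzd8 it was 0.85, 0.87 and 0.85, and for Jcad and Ano1 with Fzd3 0.85 and 0.78. Within the family the closest pair was Fzd2 and Fzd6, at r = 0.95 over the 18 libraries. The 3 day 7 injured libraries stand apart in both genes, and r over the other 15 was not computed for this pair.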

How the data were processed

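The authors trimmed the reads with Trimmomatic 0.39 and pseudo-aligned them with kallisto 0.46.1 to a mouse transcriptome stated as GRCm38, and deposited the estimated counts and the TPM values of each transcript and its length and effective length. Strand use in the counting is not stated in the sources used here. The submitters' processing notes name a human build, which the mouse identifiers contradict. The authors removed 1 ACL library before their analysis and do not name it. All 18 libraries given were used here, as many as the study's design has pools, so the removed one may be among them.

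Of 137436 transcripts, 135107 (98.3%) matched the GENCODE annotation of GRCm38 without their version, which was 1 higher in the files for 96.9% of them, and 99.3% had the same length. Unmatched transcripts held 0.667% to 3.90% of the counts and were left out. Estimated counts were summed per gene, rounded and tested with edgeR 4.0.16 (R 4.3.3), using TMM, its low-count filter and group means. Comparisons without the day 7 contralateral group used the other 15 libraries, the others all 18. P-values were adjusted by Benjamini-Hochberg over all genes. CPM are TMM-normalised over 18 libraries. limma 3.58.1 and DESeq2 1.42.0 were alternatives. The test was tried on simulated data. Shares were compared by exact permutation.

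Named genes were the 10 receptors, the Fzd6 transcripts, up to 4 called members of each list with the largest change and the 3 genes most like each called receptor. Ryk, Smo, Lrp6, Lrp5, Sost, Ctnnb1, Axin2, Daam2, Vangl1, Vangl2, Dvl3, Celsr3 and Vwf were named after their values were seen. The members and all lists were chosen with earlier results of these data known. Replicates of a group were compared pair by pair, and no pair agreed within sampling noise. Some genes that the naming rule selected are not reported here.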

Additional observations from a re-analysis of the deposited data

Results flagged for a closer look

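For 4 receptors the injury effect (injured minus contralateral, log2) was larger at day 7 than at day 1 by a test of the difference itself, edgeR's quasi-likelihood test of the contrast adjusted over 21262 genes, of which 3.53% were called higher. The difference was 2.69 for Fzd2 (FDR 1.77e-04), 1.79 for Fzd6 (FDR 5.97e-05), 1.72 for Fzd1 (FDR 0.0106) and 1.26 for Fzd8 (FDR 0.0348). The call of Fzd8 was lost on leaving out any of 9 of the 12 libraries in turn (FDR up to 0.110) and in a fit of the compared groups alone (FDR 0.0544). In each of the 4 all 3 day 7 injured libraries lay above all 3 day 7 contralateral libraries, as they did for 18.6% of genes. Mice, pools and time differ together between the days, with 2 mice in each day 1 pool and 4 in each day 7 pool by the study's methods and 4 in every sample by the series' design text, and these cannot be told apart. Among 15 groups of naïve values examined for a single library far from the rest, none had one.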

How the results depend on the processing

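No paired analysis was possible because the labels give the knees no shared replicate number and no source used here ties libraries to pools of mice. The study's own model included a correlation between libraries of 1 mouse pool, which was not fitted here. Against naïve cartilage 6 receptors were called higher under 6 of the 8 other settings, 5 with the transcript length offset and 7 with limma-voom, and from 5 to 7 on leaving out single libraries. The share of all genes called higher was 10.4% as reported and moved from 6.02% with no low-count filter to 18.7% with no fold limit. The count was 4 to 7 against contralateral cartilage and 4 to 6 between the injured knees. For the difference between the injury effects the count fell from 4 to 2 at an FDR of 0.01, and was 3 with the compared groups alone and 3 to 4 on leaving out single libraries. Of 2 Fzd6 transcripts called, 1 to 2 were called on leaving out single libraries. The share of Fzd6-202 differed by 21.2 percentage points as a share of TPM (exact p = 0.0357, not adjusted over the transcripts). As a share of counts it differed by -4.43 against day 7 contralateral libraries (exact p = 0.8, where 3 against 3 cannot go below 0.1). Rnf43 turned to 0.38 with the length offset. Why these moved was not tested.

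Reversals otherwise concerned receptors that were not called, with values on the log2 scale. They were Fzd10 at 0.13 with limma-voom between the injured knees, and Fzd8 at 0.00973 with DESeq2 size factors and 0.0109 with DESeq2 for day 7 contralateral against naïve. On leaving out single libraries, day 7 injured against naïve ran from -0.015 to 0.091 for Fzd4 and from -0.067 to 0.059 for Fzd5, and against contralateral from -0.34 to 0.052 for Fzd5 and from -0.62 to 0.073 for Fzd10. Day 1 injured against naïve ran from -0.25 to 0.092 for Fzd3, -0.0066 to 0.19 for Fzd4, -0.096 to 0.32 for Fzd7, -0.047 to 0.21 for Fzd8, -0.28 to 0.33 for Fzd9 and -0.34 to 0.33 for Fzd10. Between the injured knees the ranges were -0.15 to 0.050 for Fzd4 and -0.52 to 0.15 for Fzd10. For day 7 contralateral against naïve they were -0.065 to 0.31 for Fzd5, -0.19 to 0.27 for Fzd7, -0.29 to 0.18 for Fzd8 and -0.26 to 0.42 for Fzd10, and for the difference between injury effects -0.14 to 0.059 for Fzd4. The depth limits Fzd10 most, and these ranges cover only the libraries at hand.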
